A study of Mus musculus with 18 samples.

Results

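The genes described here are Meg3, Rian, Mirg and Dlk1, which lie in 1 imprinted domain on mouse chromosome 12. They were taken by gene name from a table of 32285 genes, and all 4 had a row. Meg3 and Rian passed the filter on low counts that left 12847 genes for testing, whereas Mirg and Dlk1 did not. The genes were chosen by their measured levels in the comparisons of pups with BDF1 mice, in which earlier results of these data showed Meg3 and Rian low in pups, so their differences between pups and BDF1 mice are given as descriptions without a test.

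Liver RNA was sequenced in 18 libraries, in 3 groups of 6. Fathers of the Space pups carried germline stem (GS) cells, a culture of spermatogonial stem cells, whose frozen vials spent 6 months aboard the International Space Station (ISS). Ground pups came from GS cells kept frozen for the same time on Earth, and unmanipulated BDF1 mice, the F1 hybrid of C57BL/6 and DBA/2, served as controls. All 3 groups are labelled wild-type and B6D2F1. The GS cells were of DBA/2 background and, per the methods of the study, carried an EGFP transgene. After thawing they were transplanted into W mice, whose own germ cells are deficient, and the recipients were mated with C57BL/6 females, so the pups received the genome that had been in culture and in the freezer from their fathers. The pups were killed at 10 weeks of age, and the age of the BDF1 mice is not given in the sources used here.

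In this domain the parental copies of each gene are used unequally. Meg3, Rian and Mirg are long noncoding RNAs normally read from the maternal chromosome, and Dlk1, which encodes a transmembrane protein related to Notch ligands, is normally read from the paternal chromosome. Rian is the host of many box C/D small nucleolar RNAs, and Meg3, Rian and Mirg all hold microRNAs. A methylated region upstream of Meg3, laid down in the male germ line, keeps the noncoding RNAs silent on the paternal chromosome. In adult mice the noncoding RNAs are most abundant in brain, pituitary, adrenal and muscle and are low in liver. Allelic origin could not be read from these counts.

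Sequences at the starts of the noncoding RNAs are shown because they show how differently the genes begin. They are from RefSeq for GRCm38.p6, which has the coordinates of mm10, and run 5′ to 3′ on the plus strand from 250 bases before to 50 bases after the RefSeq start. The Meg3 window, at the first of 2 RefSeq starts, is chr12:109540746-109541045, the Rian window chr12:109603695-109603994 and the Mirg window chr12:109734731-109735030, which lies inside the GENCODE span of Mirg given below because the RefSeq start is downstream of the GENCODE start. Capitals mark the letters CGTCA, the core of the cyclic AMP response element (CRE), and TATAAA, the letters of a TATA box, on either strand.
Meg3: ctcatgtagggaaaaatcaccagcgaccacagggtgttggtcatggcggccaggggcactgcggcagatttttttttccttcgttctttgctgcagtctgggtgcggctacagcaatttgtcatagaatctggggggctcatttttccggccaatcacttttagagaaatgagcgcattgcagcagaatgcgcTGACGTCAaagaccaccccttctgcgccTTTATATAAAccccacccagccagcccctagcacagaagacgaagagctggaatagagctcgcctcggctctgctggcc
Rian: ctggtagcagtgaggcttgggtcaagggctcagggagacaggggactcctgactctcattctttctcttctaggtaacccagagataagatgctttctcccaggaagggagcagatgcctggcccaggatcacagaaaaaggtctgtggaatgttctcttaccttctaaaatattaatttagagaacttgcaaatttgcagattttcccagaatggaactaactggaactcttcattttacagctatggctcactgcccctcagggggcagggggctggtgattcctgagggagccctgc
Mirg: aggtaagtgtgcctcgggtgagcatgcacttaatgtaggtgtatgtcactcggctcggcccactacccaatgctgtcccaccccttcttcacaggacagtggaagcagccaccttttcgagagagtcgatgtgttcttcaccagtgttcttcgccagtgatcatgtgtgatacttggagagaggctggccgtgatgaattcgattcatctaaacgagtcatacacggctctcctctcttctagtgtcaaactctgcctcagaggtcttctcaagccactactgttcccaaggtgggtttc
The Meg3 window held the full palindrome TGACGTCA, which starts 57 bases before the start and contains CGTCA once on each strand. Of 32851 promoter windows of the same length, 1.79% held TGACGTCA and 20.81% held CGTCA on at least 1 strand. TATAAA lay 25 bases before the Meg3 start on the plus strand and 29 bases before it on the minus strand, in overlapping letters, and 13.62% of all windows held it. The Meg3 window had 13 CpG dinucleotides and the Mirg window 10, against a median of 7 over all windows. The window of the second Meg3 start, chr12:109545148-109545447, had 1 CpG and none of the letters searched. The Rian window had 0 CpG and none of these letters, and the Mirg window had none of the capitalised letters either. CCAAT, searched on both strands and held by 37.41% of windows, was found in the Meg3 and Mirg windows. TGCCGC, the hexamer bound by ZFP57, occurred in the Meg3 window 190 bases before the start on the minus strand and in 11.61% of windows. A match of letters is a description and shows no binding.

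The stretch from the start of Meg3 to the end of Mirg holds 57 microRNA genes on the plus strand in the RefSeq table, of which 2 lie in Meg3, 3 in Rian and 14 in Mirg, while 25 lie between Rian and Mirg. Their 105 mature names have 97 different seeds, and 8 seeds are shared. The mature sequences below were chosen to show 1 product of each host RNA and a pair within Mirg that shares its seed, bases 2 to 8, in capitals.
miR-770-5p, in Meg3: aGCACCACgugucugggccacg
miR-370-3p, in Rian: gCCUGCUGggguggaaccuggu
miR-453, in Mirg: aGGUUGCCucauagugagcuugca
miR-496a-5p, in Mirg: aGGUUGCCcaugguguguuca
miR-453 and miR-496a-5p share the seed GGUUGCC, while the seeds of miR-770-5p and miR-370-3p occur once among the 105 names. These libraries were made from polyadenylated RNA and counted per gene, so they measure the host RNAs and no mature microRNA.

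Total counts per library were between 15407400 and 20562400, rounded to 6 digits. A count of 0 allowed up to 3 counts, which is between 0.134 and 0.235 CPM (the usual library-scaled count, here after TMM scaling of the library size), and this limit covers counting error only. In every group, replicates 1 to 3 had 187 or fewer counts of Xist, the RNA of the inactive X chromosome, and 1822 or more counts of 4 Y-linked genes, whereas replicates 4 to 6 had 12218 or more and 26 or fewer. The labels give no sex for a library, although the study describes F1 males and females, and these sets are called Xist-low and Xist-high. Alb, the albumin gene, took 17.6% to 24.1% of the counts of the 6 Xist-high pup libraries, 6.72% to 8.03% of the 3 Xist-high BDF1 libraries and 4.47% to 6.45% of the 9 Xist-low libraries. Space replicate 6 stood apart in genes of haploid male germ cells (Prm1, Prm2, Tnp1, Tnp2 and Ldhc), with a sum of 46.0 CPM against at most 4.75 CPM in the other libraries.

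Meg3 lay below the level of BDF1 mice in Space pups and in all Ground pups but replicate 1. The gap to BDF1 libraries of the same class was wider in the Xist-high libraries. Counts of Meg3 (chr12:109541001-109571726, mm10, plus strand) ran from 15 to 53 in Space pups, from 21 to 196 in Ground pups and from 109 to 412 in BDF1 mice. In CPM the lowest, median and highest values were 0.861, 2.09 and 3.12 in Space pups, 1.45, 2.88 and 9.59 in Ground pups, and 5.69, 9.13 and 20.6 in BDF1 mice. All 6 Space libraries lay below all 6 BDF1 libraries, and 5 of 6 Ground libraries did. The exception was Ground replicate 1, at 9.59 CPM, which was above the 3 lowest BDF1 libraries. The mean was 2.08 ± 0.814 CPM for Space, 3.88 ± 2.93 CPM for Ground and 10.8 ± 5.98 CPM for BDF1 (SD, n = 6 each). The fitted log2 difference from BDF1 was -2.37 ± 0.45 (SE) in Space pups and -1.46 ± 0.43 (SE) in Ground pups. In bulk liver, fewer cells that hold an RNA and less of that RNA per cell cannot be told apart.

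Rian, whose introns carry box C/D small nucleolar RNAs, followed the same order of groups. Rian (chr12:109603940-109661716, mm10, plus strand) had lowest, median and highest values of 0.392, 0.916 and 2.47 CPM in Space pups, 0.621, 1.34 and 3.86 CPM in Ground pups, and 2.68, 5.72 and 12.6 CPM in BDF1 mice. All Space libraries were again below all BDF1 libraries, and Ground replicate 1 was again the single Ground library within the BDF1 range. The mean was 1.08 ± 0.780 CPM for Space, 1.65 ± 1.14 CPM for Ground and 6.33 ± 3.70 CPM for BDF1 (SD, n = 6 each). The log2 difference from BDF1 was -2.54 ± 0.50 (SE) in Space pups and -1.92 ± 0.48 (SE) in Ground pups. The BDF1 libraries are shared by both differences.

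Mirg, the most distal of the noncoding RNAs, was close to the limit of detection. Its counts in replicates 1 to 6 were 6, 0, 1, 0, 0 and 1 in Space pups, 2, 2, 0, 3, 0 and 0 in Ground pups, and 2, 3, 4, 9, 13 and 17 in BDF1 mice (chr12:109729764-109749460, mm10, plus strand). Summed over a group these were 8, 7 and 48 counts. Xist-high BDF1 libraries, with 9 to 17 counts, were above every other library, and Xist-low BDF1 libraries overlapped the pups. A fit without the filter on low counts gave log2 differences from BDF1 of -2.21 ± 0.85 (SE) for Space pups and -2.48 ± 0.86 (SE) for Ground pups.

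Dlk1, the protein-coding gene of the cluster and the one read from the paternal chromosome, was not detectable above the limit of a count of 0 in any library. It had 7 counts in all 18 libraries and never more than 1 in a library, with sums of 2 in Space pups, 4 in Ground pups and 1 in BDF1 mice (chr12:109452823-109463336, mm10, plus strand). No difference in Dlk1 could be read at this depth.

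**Figure D1:**
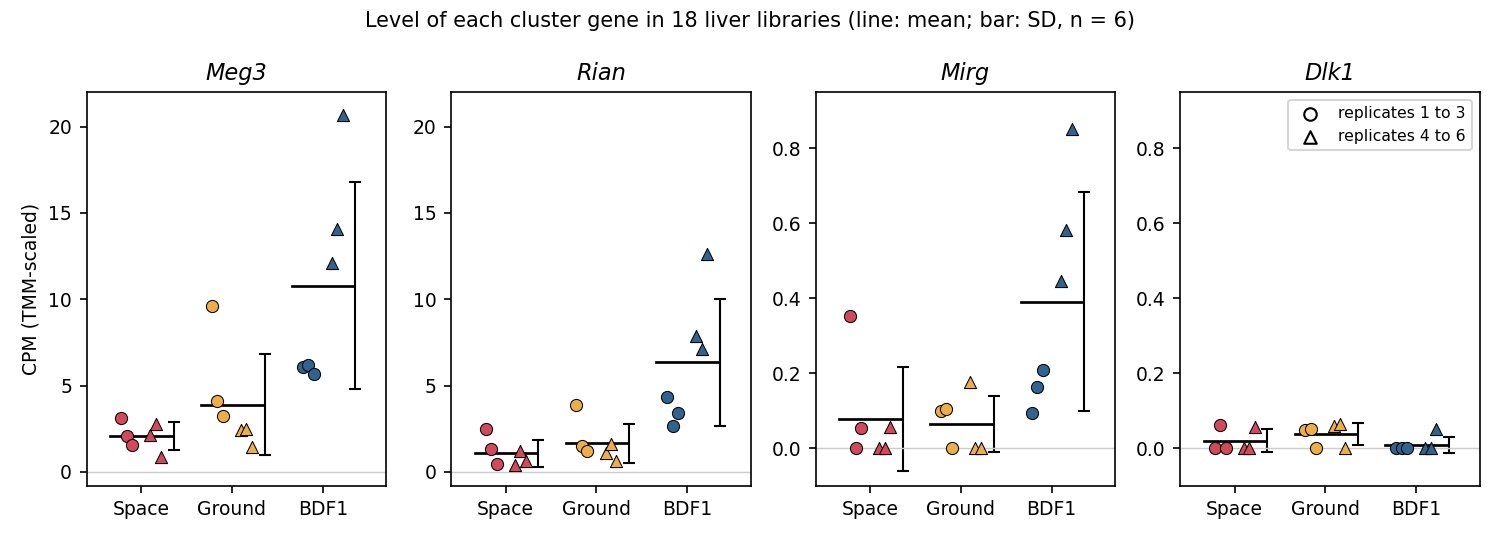
Level of Meg3, Rian, Mirg and Dlk1 in CPM of the TMM-scaled library size (linear axis; one scale for Meg3 and Rian, another for Mirg and Dlk1) in 18 liver libraries, with 1 point per library, the group mean as a line and the SD (n = 6) as a bar. The Xist-high BDF1 libraries (triangles, replicates 4 to 6) are the highest for Meg3, Rian and Mirg, Ground replicate 1 is the highest pup library for Meg3 at 9.59 CPM and for Rian at 3.86 CPM, and Dlk1 never exceeds 1 count.

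Per kilobase of exon the order of the cluster genes was Meg3, Rian, Mirg and Dlk1 in BDF1 mice. Levels there were 0.596 ± 0.331 CPM per kb for Meg3, 0.347 ± 0.203 for Rian, 0.0536 ± 0.0400 for Mirg and 0.00148 ± 0.00362 for Dlk1 (SD, n = 6, exon lengths of 18089, 18234, 7292 and 5657 bases in GENCODE M21). Meg3 exceeded Rian in all 18 libraries, with 5 to 252 counts of Rian against 15 to 412 of Meg3. Meg3 and Rian, neighbours in this order, differed by less than the SD of Meg3 in BDF1 mice, while Mirg lay below both in every BDF1 library. In Space pups the levels were 0.115 ± 0.0450 CPM per kb for Meg3 and 0.0593 ± 0.0428 for Rian.

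As a description, edgeR at a Benjamini-Hochberg adjusted p under 0.05 put 2 of 2 tested cluster genes below BDF1 in Space pups, where 1.46% of all tested genes were called lower, 2.34% higher and 3.8% in either direction. It put 1 of 2, Rian, below BDF1 in Ground pups, where 2.05% of tested genes were, with 1.76% higher and 3.81% in either direction. Nothing is read from these counts, since the same contrast chose the genes. Calls over all genes numbered 488 for Space and 489 for Ground against BDF1, and 774 and 843 with the replicate number as a block. Under total-count scaling the calls were 712, of which 66 were higher, against 301 higher of 488 for Space, and 942 with 65 higher against 226 higher of 489 for Ground.

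The comparison of Space with Ground pups asks whether storage on the ISS, beyond freezing and transplantation, left a mark on the cluster, and it was not used to choose the genes. Meg3 was lower in Space than in Ground pups by -0.91 ± 0.44 (SE) on the log2 scale, which did not pass the test (adjusted p = 0.541, edgeR quasi-likelihood test over 12847 genes). Rian differed by -0.62 ± 0.50 (SE), with an adjusted p of 0.747. edgeR called 0% of tested genes between Space and Ground, although 1186 had an unadjusted p under 0.05, and DESeq2 called 30 genes and limma voom 0. Without Ground replicate 1 the log2 difference shrank to -0.41 for Meg3 and to -0.16 for Rian. Without Space replicate 6, the library with germ cell RNA, it was -0.75 for Meg3 and -0.50 for Rian.

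By value, Meg3 differed between the pup groups more in the Xist-low libraries. Within them Space pups had 3.12, 2.06 and 1.55 CPM and Ground pups 9.59, 4.09 and 3.26 CPM, so that no values overlapped. The log2 difference was -1.33 ± 0.41 (SE), with an adjusted p of 0.336 in the edgeR fit of group, Xist class and their interaction, where 0.00749% of genes were called. Within the Xist-high libraries Space pups had 2.12, 2.76 and 0.861 CPM and Ground pups 2.42, 2.49 and 1.45 CPM, which overlapped, and the log2 difference was -0.16 ± 0.46 (SE, adjusted p = 0.914, 0.0225% of genes called). The difference between these differences was 1.17 ± 0.62 (SE) for Meg3, with an adjusted p of 0.692. For Rian the differences within Xist-low and Xist-high libraries were -0.63 ± 0.53 (SE, adjusted p = 0.739) and -0.57 ± 0.62 (SE, adjusted p = 0.717).

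The levels of the noncoding RNAs in BDF1 mice and in pups separated most in the Xist-high libraries. Meg3 in BDF1 mice was 6.06, 6.19 and 5.69 CPM in replicates 1 to 3 and 12.1, 14.0 and 20.6 CPM in replicates 4 to 6, so the Xist-high libraries were all above the Xist-low ones. In Ground pups the order was the opposite, with every Xist-high library below every Xist-low library. In Space pups the classes overlapped. Relative to BDF1 libraries of the same class, Meg3 changed on the log2 scale by -1.41 ± 0.41 (SE) in Xist-low and -3.03 ± 0.42 (SE) in Xist-high Space pups. In Ground pups the log2 changes were -0.082 ± 0.38 (SE) in Xist-low and -2.87 ± 0.41 (SE) in Xist-high libraries. As ratios of mean CPM, BDF1 exceeded Ground 1.06-fold in Xist-low and 7.36-fold in Xist-high libraries. The ratio in Xist-low libraries was 1.63 without Ground replicate 1, and the other Xist-low Ground libraries, at 4.09 and 3.26 CPM, were below all Xist-low BDF1 libraries.

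Rian behaved alike in direction against BDF1. Its classes overlapped in Ground pups, unlike those of Meg3, at 3.86, 1.47 and 1.21 CPM in Xist-low and 1.12, 1.64 and 0.621 CPM in Xist-high libraries. BDF1 libraries had 4.32, 2.68 and 3.39 CPM in replicates 1 to 3 and 7.87, 7.11 and 12.6 CPM in replicates 4 to 6. Its log2 changes against BDF1 were -1.29 ± 0.52 (SE) and -3.59 ± 0.55 (SE) in Xist-low and Xist-high Space pups, and -0.67 ± 0.49 (SE) and -3.02 ± 0.53 (SE) in Xist-low and Xist-high Ground pups. Xist-high BDF1 libraries lay above every pup library for Rian. BDF1 exceeded Ground 1.59-fold in mean CPM in Xist-low libraries, and 2.59-fold without Ground replicate 1.

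**Figure D2:**
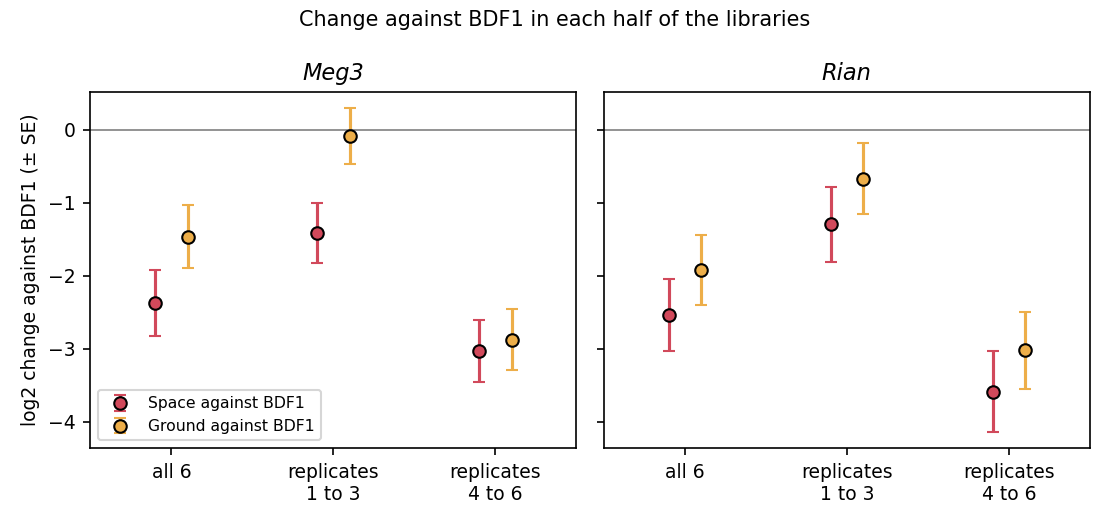
Log2 change of Meg3 and Rian against BDF1 mice (vertical axis, ± SE) in Space and Ground pups, for all 6 libraries of a group and for Xist-low (replicates 1 to 3) and Xist-high (replicates 4 to 6) libraries, each against BDF1 libraries of the same class. Ground pups, with Ground replicate 1 included, sit at -0.082 in the Xist-low and at -2.87 in the Xist-high libraries for Meg3, and both pup groups lie near -3 or below for both genes in the Xist-high libraries.

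Whether the change against BDF1 differed between the classes was fitted as the interaction of group and Xist class in edgeR. The pup and BDF1 libraries that chose the genes also enter this interaction, so its p-values for Meg3 and Rian are descriptions and no independent test. For Meg3 the interaction of Ground against BDF1 was -2.79 ± 0.56 (SE), with an adjusted p of 0.0154 over 13356 genes, of which 2.74% were called. It kept this call when any 1 of 17 libraries was left out, with an adjusted p of 0.0504 and a log2 value of -2.53 without BDF1 replicate 6. For Space against BDF1 the interaction of Meg3 was -1.62 ± 0.58 (SE, adjusted p = 0.138), and 3.19% of genes were called. For Rian the interaction was -2.35 ± 0.72 (SE, adjusted p = 0.0898) for Ground and -2.29 ± 0.76 (SE, adjusted p = 0.109) for Space, neither of which passed, although the first passed under total-count scaling (-2.72, adjusted p = 0.0261). The share of counts taken by Alb moved with the class in pups more than in BDF1 mice, and its part in these values was not tested.

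Within BDF1 mice the Xist-high libraries exceeded the Xist-low ones in Meg3 by 1.38 ± 0.37 (SE) on the log2 scale, with an adjusted p of 0.0200 in edgeR, where 14.6% of genes were called. The same libraries chose the genes, so the p-values of Meg3 and Rian within groups are descriptions as well. Without BDF1 replicate 1, 2, 3 or 6 this call was lost, with adjusted p between 0.0554 and 0.0931. For Rian the difference was 1.40 ± 0.46 (SE, adjusted p = 0.0523). Summed marker levels of several cell types also separated by class in BDF1 mice. In Xist-low and Xist-high BDF1 libraries the sums were 163 to 197 and 244 to 314 CPM for 7 stellate cell markers, 57365 to 71910 and 74121 to 96714 CPM for 6 hepatocyte markers, and 23.2 to 43.2 and 46.8 to 60.2 CPM for 4 portal fibroblast markers. They were 0.731 to 0.931 and 1.20 to 1.70 CPM for 5 lymphocyte markers and 0.931 to 1.74 and 3.31 to 5.59 CPM for 8 adrenal markers. The hepatocyte sum was mostly Alb, the serum albumin gene, which averaged 44835 and 65715 CPM, while Apoa1 (7713 and 4672 CPM) and Serpina1c (2199 and 1485 CPM) were lower in the Xist-high libraries. The adrenal sum rested on Akr1b7, at 0.472 and 2.98 CPM. The 4 erythroid markers went the other way, with 177 to 290 and 31.6 to 82.6 CPM. So did the 5 haploid germ cell markers, with 0.423 to 4.75 and 0 to 0.134 CPM. Among the stellate markers Lrat, which makes retinyl esters, averaged 3.94 and 15.4 CPM. In pups the stellate sums of the classes overlapped, at 268 to 323 and 273 to 291 CPM in Space and 218 to 279 and 252 to 330 CPM in Ground, and those of the portal fibroblast and erythroid markers overlapped as well. The hepatocyte, lymphocyte and adrenal sums were again wholly higher in the Xist-high libraries of both pup groups. For hepatocyte markers they were 88275 to 89520 and 223696 to 280373 CPM in Space and 71452 to 88481 and 215114 to 375793 CPM in Ground. The part of these markers in the levels of Meg3 was not tested. Within Ground pups Meg3 was lower in the Xist-high libraries by -1.41 ± 0.42 (SE, adjusted p = 0.0265, 18.3% of genes called), and the value was -0.79 with an adjusted p of 0.200 without Ground replicate 1 and -1.21 with an adjusted p of 0.0986 without Ground replicate 6. Within Space pups it was -0.24 ± 0.45 (SE, adjusted p = 0.750, 21.9% of genes called). Averaged over groups, Xist class had a log2 coefficient of 0.01 ± 0.39 (SE, adjusted p = 0.983) for Meg3 and 0.05 ± 0.42 (SE, adjusted p = 0.937) for Rian, where 35.9% of genes were called. Both coefficients were negative under total-count scaling.

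The ratio of the noncoding RNAs to each other was compared between groups. The count of Rian per count of Meg3 averaged 0.515 ± 0.244 for Space, 0.447 ± 0.110 for Ground and 0.585 ± 0.101 for BDF1 (SD, n = 6 each). The lowest ratio was 0.185, in Space replicate 4 with 5 counts of Rian, and the highest was 0.792, in Space replicate 1. Both genes were chosen by their differences from BDF1, so p-values of the ratio against BDF1 are descriptions. In an exact two-sided permutation test Ground was lower than BDF1 by -0.138 with an unadjusted p of 0.0498. No pair of groups passed after adjustment over 3 comparisons, with adjusted p = 0.532 for Space against Ground, 0.532 for BDF1 against Space and 0.149 for BDF1 against Ground. Mirg summed to 8, 7 and 48 counts beside 108, 183 and 776 of Rian in Space, Ground and BDF1, and 6 of the 8 counts in Space were from replicate 1.

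Across the 6 Space libraries Meg3 and Rian had a Pearson r of 0.611 (exact permutation p = 0.189, adjusted over 9 relations 0.340) and a Spearman rho of 0.486 (exact permutation p = 0.356, adjusted 0.640). Without the 2 libraries farthest from the median of Meg3, r was 0.570. In Ground pups and BDF1 mice the Xist classes did not overlap in Meg3, so a pooled r within those groups is not given, and a class holds too few libraries for its own. As a description, the r of log2 CPM was 0.739 over 18 libraries after centring within group and class, in which points of 1 class in a group share their mean. The same description gave 0.322 for Meg3 with Mirg and 0.396 for Rian with Mirg, where most counts of Mirg were under 5.

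**Figure D3:**
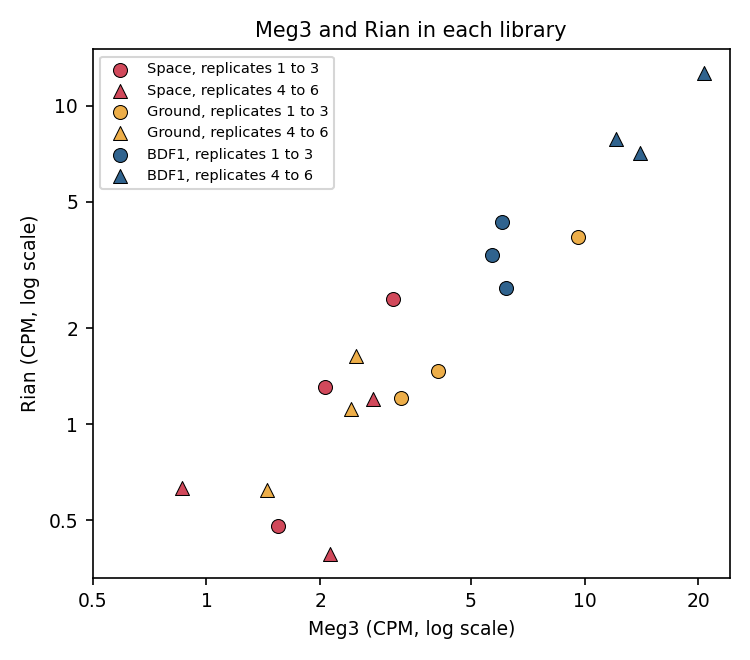
Rian against Meg3 in 18 libraries (CPM of the TMM-scaled library size, both axes logarithmic), with 1 point per library, colour for the group and shape for the replicate numbers. The libraries lie along a single band from Space replicate 6, at 0.861 CPM of Meg3, to BDF1 replicate 6, at 20.6 CPM, and Ground replicate 1 falls among the BDF1 libraries.

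Among tested genes, those with a pattern most like Meg3 were ranked by Pearson r of log2 CPM over the 18 libraries, as a description of points that share libraries and groups. Rian ranked 1 of 12846 genes, with an r of 0.938, which includes the difference between groups by which both genes were chosen and so is not read as a result. The next were Tmem63b (r 0.842), Dctn1 (0.837), Rpap1 (0.831) and Stim2 (0.814), which lie on other chromosomes and changed far less than Meg3, with group means of Tmem63b of 70.0, 72.2 and 92.3 CPM in Space, Ground and BDF1. Centring within group alone keeps the differences between Xist classes, so the r below includes them. After it, Nat8f1 ranked first (r 0.843) and Rian second (0.832). Next came Gsta3 (0.824), a glutathione transferase, Irf5 (0.814), an interferon regulatory factor, Tmem86b (0.811) and Cyp1a2 (0.798), a cytochrome P450 of hepatocytes. Cyp1a2 in Xist-low and Xist-high libraries averaged 986 and 538 CPM in Ground pups and 664 and 1001 CPM in BDF1 mice. For Rian the genes most alike after centring were Irf5 (r 0.872) and Pdzk1 (0.865), ahead of Meg3.

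The table held 16 genes from Begain to Dio3, the outer protein-coding genes of the domain, and 4 of them were tested. Rtl1, a retrotransposon-derived gene read from the paternal chromosome and opposite to microRNAs of the maternal one, had 0 counts in all libraries, as did 4 other genes of the domain. Dio3os, the noncoding RNA beside Dio3 at the far end, was at 1.91 CPM in Space pups, 2.02 in Ground pups and 0.660 in BDF1 mice. Its log2 differences from BDF1 were 1.54 ± 0.63 (SE, adjusted p = 0.170, edgeR) and 1.62 ± 0.63 (SE, adjusted p = 0.151), opposite in sign to Meg3 and not past the test. By class, Dio3os differed from BDF1 by 2.94 ± 0.84 (SE, adjusted p = 0.0580) and 3.11 ± 0.83 (SE, adjusted p = 0.0661) in Xist-low libraries, and by 0.52 ± 0.75 (SE, adjusted p = 0.687) and 0.38 ± 0.76 (SE, adjusted p = 0.778) in Xist-high libraries. The differences between classes were not past the test either (adjusted p = 0.260 and 0.219). Dio3, which encodes the deiodinase that inactivates thyroid hormone, had 48 counts in all libraries and was not tested. Gm34667, a long noncoding RNA between Mirg and Dio3, was at 3.18, 1.81 and 4.32 CPM, with log2 differences of -0.43 ± 0.38 (SE, adjusted p = 0.560) and -1.24 ± 0.39 (SE, adjusted p = 0.0786).

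Of 30 flanking rows of the table, which lie outside the domain but within 500 kb of the stretch from Begain to Ppp2r5c, the next gene of the table beyond Dio3, 17 were tested, and edgeR called 0 of them in any of the 3 comparisons, where 3.8%, 3.81% and 0% of all tested genes were called. The median log2 difference of the 17 genes was 0.02 for Space and 0.10 for Ground against BDF1, beside 0.00 and 0.02 over all tested genes. Yy1, a zinc finger transcription factor, was at 61.0, 74.0 and 60.2 CPM in Space, Ground and BDF1. Slc25a47, a mitochondrial carrier of hepatocytes, had the highest flanking value, 0.82 ± 0.23 (SE, adjusted p = 0.0573) for Space against BDF1 and 0.60 ± 0.23 (SE, adjusted p = 0.153) for Ground.

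**Figure D4:**
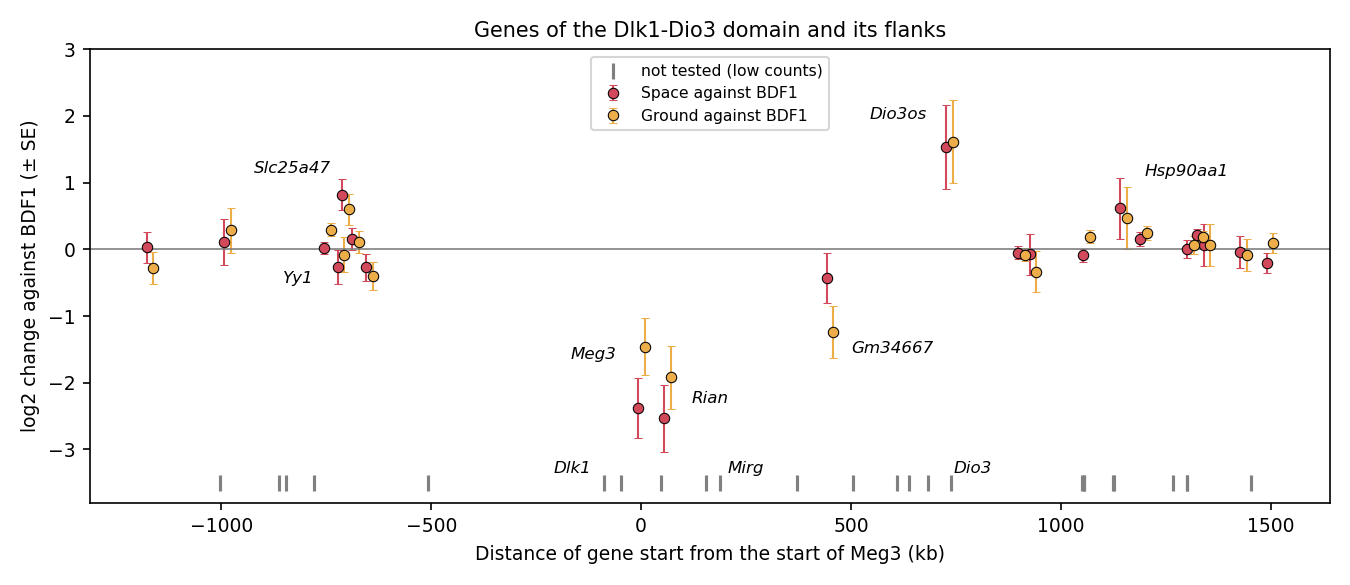
Log2 change against BDF1 (vertical axis, ± SE) of tested genes of the domain and its flanks, placed by the distance of the gene start from the start of Meg3 in kilobases, with ticks for genes with too few counts. Meg3 and Rian are the lowest points for both pup groups, Dio3os is the highest, and the flanking genes lie between -0.40 and 0.82.

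Genes that keep parental imprints were then read from a list. Of 13 such genes 9 were tested, and only Trim28, the corepressor recruited by ZFP57, was called, lower in Space pups than in BDF1 mice by -0.33 on the log2 scale (adjusted p = 0.00899, edgeR), where 1.46% of all tested genes were called lower and 3.8% in either direction. It was at 47.1 ± 1.74 CPM in Space pups, 54.7 ± 4.41 in Ground pups and 59.2 ± 2.85 in BDF1 mice (SD, n = 6), and the value for Ground was -0.11 (adjusted p = 0.331). The call was kept when each library was left out in turn, and in Xist-high libraries alone the value was -0.34 (adjusted p = 0.113). Median log2 differences of the 9 genes were 0.05 for Space and 0.09 for Ground. Zfp57 itself was at 0.690, 0.523 and 0.574 CPM, and Dnmt1, the maintenance methyltransferase, at 8.63, 10.5 and 11.0 CPM (adjusted p = 0.148 for Space against BDF1).

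Genes with which the cluster is known to act gave 0 calls by edgeR in 4 lists, where 3.8% of all tested genes were called for Space and 3.81% for Ground against BDF1. Polycomb repressive complex 2, which Meg3 is known to bind, had 7 of 7 genes tested and 0 called, with median log2 differences of -0.19 for Space and -0.11 for Ground against BDF1. Ezh1 (-0.31, adjusted p = 0.0625) and Jarid2 (-0.45, adjusted p = 0.0606) had the smallest p values for Space. The 12 genes that make and load microRNAs had 0 called, with medians of -0.11 and 0.02, and Ago1, an Argonaute protein, was at -0.36 in Space pups (adjusted p = 0.0539). The 4 core proteins of box C/D small nucleolar ribonucleoproteins had 0 called, with medians of 0.12 and -0.02. For the Notch pathway, on which Dlk1 is known to act, 11 of 14 genes were tested and 0 called, and Notch4 was at 0.47 and 0.49 in Space and Ground (adjusted p = 0.0935 and 0.0813). Unadjusted p values of these 4 lists against BDF1 went down to 0.00221 for Space and 0.00537 for Ground.

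A list of other imprinted genes gave 1 call, beside 3.8% of all tested genes for Space and 3.81% for Ground. Of 20 listed genes 13 were tested, and Gnas, which encodes a stimulatory G protein subunit, was called higher in Space pups by 0.46 (adjusted p = 0.0275, edgeR), at 578, 533 and 419 CPM in Space, Ground and BDF1. Without Space replicate 4 or 5 or BDF1 replicate 4 or 5 the adjusted p of Gnas was between 0.0507 and 0.0711. The call was also lost under total-count scaling (0.19, adjusted p = 0.314), without the filter on low counts (adjusted p = 0.0665) and in Xist-low (0.29, adjusted p = 0.0949) or Xist-high (0.63, adjusted p = 0.0830) libraries alone. No listed gene was called lower, and the medians were 0.15 for Space and 0.18 for Ground, beside 0.00 and 0.02 over all tested genes. Igf2, the fetal growth factor, had a log2 difference of 3.87 in Ground pups (adjusted p = 0.0537), with means of 0.323 ± 0.098 CPM (SD, n = 3) in Xist-low and 10.4 ± 9.97 CPM in Xist-high Ground libraries, and 2.60 ± 2.78 CPM in Xist-high Space libraries. Peg3, a paternally expressed zinc finger gene, averaged 7.61 ± 1.84 CPM (SD, n = 3) in Xist-low and 166 ± 133 CPM in Xist-high Ground libraries, 6.49 ± 1.81 and 77.4 ± 116 CPM in Space, and 15.5 ± 4.85 and 12.8 ± 2.51 CPM in BDF1 mice, and its log2 differences of 1.56 and 2.62 were not past the test (adjusted p = 0.442 and 0.189). Of 8 fetal liver genes and their silencers 5 were tested and 0 called.

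Markers of adrenal, muscle and adipose tissue were low, and no brain or pituitary marker was examined. Of 8 adrenal markers, Cyp11b1, Th and Dbh had 0 counts in all libraries, Cyp11a1 and Cyp11b2 had at most 4 and Chga at most 2 in a library, and the summed level was 1.49 to 15.6 CPM in Space pups, 1.32 to 11.3 in Ground pups and 0.931 to 5.59 in BDF1 mice, made up mostly of Akr1b7 and Star. The 5 muscle markers summed to at most 0.138 CPM in any library, with Myh4 at 0 and at most 2 counts in a library of Acta1, Ckm, Myh1 and Tnnt3. Their part in the levels of Meg3 and Rian was not tested. The 4 adipose markers summed to at most 3.55 CPM, in an Xist-low BDF1 library, and Lep was at 0. Space replicate 6, with 46.0 CPM of the 5 haploid germ cell markers, had the lowest Meg3 of all libraries.

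Liver cell markers were present in all groups, and their calls stand beside 3.8% of all tested genes called for Space and 3.81% for Ground against BDF1. Of 6 hepatocyte markers Apoa1 was called higher in Space (1.01, adjusted p = 0.0335, edgeR) and in Ground pups (0.94, adjusted p = 0.0460), and the summed level ran from 88275 to 280373, from 71452 to 375793 and from 57365 to 96714 CPM in Space, Ground and BDF1. The 7 stellate cell markers, of which Hand2 was called higher in Ground pups (0.78, adjusted p = 0.0421), summed to 268 to 323, 218 to 330 and 163 to 314 CPM. The 4 portal fibroblast markers had 0 called and summed to 27.9 to 60.8, 22.1 to 54.9 and 23.2 to 60.2 CPM. Of 6 endothelial markers Clec4g was called lower in Space pups (-0.83, adjusted p = 0.0199) and Stab2 higher in Ground pups (0.98, adjusted p = 0.0261), and sums were 58.5 to 79.5, 68.7 to 119 and 51.0 to 116 CPM. The call of Clec4g was lost without BDF1 replicate 5 (adjusted p = 0.0574), that of Stab2 without Ground replicate 6 or BDF1 replicate 2 or 6 (up to 0.0622), that of Hand2 in 12 of 18 fits without 1 library (up to 0.0923), and that of Apoa1 in 7 of 18 for Space and 13 of 18 for Ground (up to 0.110). In Xist-low libraries alone Apoa1 was at 0.44 in Space (adjusted p = 0.116) and 0.17 in Ground pups (adjusted p = 0.590), and its calls were also lost with the replicate block (adjusted p = 0.0511 and 0.0737) and without the filter on low counts (adjusted p = 0.0528 and 0.0758). Clec4g lost its call in Xist-high libraries alone (-0.77, adjusted p = 0.169), and Hand2 in Ground pups under total-count scaling (0.50, adjusted p = 0.129), without the filter on low counts (adjusted p = 0.0720) and in Xist-high libraries alone (0.51, adjusted p = 0.163). The 5 Kupffer cell, 5 cholangiocyte and 4 erythroid markers had 0 called, and none of 5 lymphocyte or 5 pancreas markers was called among the 1 tested of each. Over all libraries of a group the stellate and endothelial sums overlapped between groups. Within the Xist-low libraries the stellate sums of Space and Ground pups were wholly above those of BDF1 mice, and the endothelial sums of Space pups, at 58.5 to 62.9 CPM, were wholly below those of BDF1 mice, at 75.1 to 88.8 CPM. Within the Xist-high libraries both sums overlapped between pups and BDF1 mice. The hepatocyte sums of both pup groups there (215114 CPM or more) were wholly above those of BDF1 mice (96714 CPM or less). Most of this was Alb, at 220476, 269715 and 65715 CPM in Space, Ground and BDF1. Apoa1 and Serpina1c were also higher in both pup groups, and Ttr in Space only. Tat (1141, 1406 and 1842 CPM) and Cyp2e1 (3805, 3651 and 5798 CPM) were lower in pups. The erythroid sums there were 188 to 687 CPM in Space, 97.1 to 547 CPM in Ground and 31.6 to 82.6 CPM in BDF1, also wholly higher in pups, and the lymphocyte sums were 1.80 to 2.99, 1.77 to 2.75 and 1.20 to 1.70 CPM. Pancreas sums of the Xist-high libraries were wholly lower in pups than in BDF1 mice. They were 9.25 to 18.7, 6.76 to 12.5 and 33.4 to 38.6 CPM in Space, Ground and BDF1, mostly from Cela1. Cholangiocyte sums there were wholly lower in Ground pups, at 12.7 to 19.1 CPM against 21.95 to 25.1 CPM in BDF1. Those of Space pups overlapped BDF1. Adrenal sums there were wholly higher in Space pups (7.14 CPM or more) than in BDF1 mice (5.59 CPM or less). The part of cell composition in the levels of Meg3 and Rian was not tested.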

How the data were processed

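Deposited values were raw counts of reads per gene, whole numbers without normalization. The authors made stranded mRNA libraries from polyadenylated liver RNA. The submitters' processing notes name bcl2fastq 2.20, cutadapt 4.6, HISAT2 2.2.1, HTSeq 2.0.2 and mm10. The strand setting and the treatment of reads shared between overlapping genes are not given in the sources used here, so reads of antisense partners may not be separable. Of 32285 rows, 32235 matched GENCODE M21.

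The cluster genes and all gene lists were chosen with earlier results of these data known. Genes passing filterByExpr were scaled by TMM and fitted in edgeR 4.0.16 (R 4.3.3) by quasi-likelihood over all 18 libraries with group alone, and a second fit held group, Xist class (Xist counts above or below the sum of Ddx3y, Eif2s3y, Kdm5d and Uty) and their interaction. P-values were Benjamini-Hochberg adjusted over all tested genes, with a threshold of 0.05. Each SE was obtained by dividing the size of the log2 change by the root of its F statistic. TMM-scaled library sizes gave CPM, and a prior count of 2 entered log2 CPM. Named genes were the cluster genes, genes of the domain and its flanks, the 8 most alike by r, and up to 5 per list by smallest p. The fits were tested on simulated data.

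Same-numbered libraries deviated together over 18 pairs (r 0.231 to 0.654, median 0.487), but no more than other numbers of the same Xist class (median 0.529), and within class the median was -0.05. The numbers thus carry the Xist class, and no further pairing was seen. The labels name no litter or batch. The study describes F1 males and females, and its number of wild-type mice, unless meant per sex, is below the 6 BDF1 libraries, so whether BDF1 libraries share an animal is unknown and p-values measure the spread between libraries. Alternatives were DESeq2 1.42.0 and its size factors, total-count scaling, limma voom (3.58.1), no filter, a replicate block, Xist class, and leaving out libraries.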

Additional observations from a re-analysis of the deposited data

Results flagged for a closer look

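Ground replicate 1 stood above the other Ground libraries in both Meg3 and Rian. Its gap to the next library was 0.675 of the range of the group for Meg3 (9.59 against 4.09 CPM) and 0.686 for Rian (3.86 against 1.64 CPM), beyond Dixon's critical value at 95% for 6 samples. Space replicate 1 stood apart in Mirg, with a gap of 0.837 of the range, which rests on 6 counts. In 8 sets examined, 3 passed this limit, where chance gives 0.4 on average for independent, normally distributed values. Each group here pools the Xist classes, and Meg3 and Rian passed in the same library, so the 3 sets are not read as more than chance.

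The change of Meg3 in Ground pups against BDF1 mice differed between Xist-high and Xist-low libraries, with an interaction of -2.79 ± 0.56 (SE) on the log2 scale (adjusted p = 0.0154, edgeR). This p is a description, since the libraries that chose the gene enter it. All 3 Xist-high Ground libraries were below all 3 Xist-high BDF1 libraries, whereas Ground replicate 1 was above and the other Xist-low Ground libraries were below the Xist-low BDF1 libraries. The cause was not tested.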

How the results depend on the processing

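Against BDF1, DESeq2 called 1030 genes for Space and 1087 for Ground, no filter on low counts 281 and 218, Xist class as a covariate 1330 and 1442, and the replicate block 774 and 843. Xist-low libraries alone gave 1090 for Space, Xist-high libraries alone 895 for Ground, and total-count scaling 942 for Ground. Leaving out 1 library gave 231 to 593 genes for Space and 141 to 667 for Ground. The low ends came without BDF1 replicates 4 and 5 (231 and 238; 145 and 141). For Space against Ground, DESeq2 called 30 genes, Xist-low libraries alone 14, and leaving out 1 library 0 to 6.

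Calls of cluster genes against BDF1, which support nothing, were 1 for Space in Xist-low libraries alone. For Ground 2 were called under total-count scaling, DESeq2, Xist class as a covariate and Xist-high libraries alone, 0 in Xist-low libraries alone, and 0 to 2 without 1 library. The 2 called came without Ground replicate 1, and 0 came without Ground replicate 2, 3, 4, 5 or 6 or BDF1 replicate 4, 5 or 6. In separate fits of Xist-low libraries the log2 changes were -1.42 for Meg3 and -1.30 for Rian in Space pups, and -0.084 and -0.67 in Ground pups. In Xist-high libraries they were -3.59 for Rian in Space pups, and -2.87 and -3.02 for Meg3 and Rian in Ground pups. The replicate block changed no call of Meg3 or Rian. In Xist-low libraries the ratio of BDF1 to Ground in mean CPM, examined after seeing the data, went from 1.06 to 1.63 for Meg3 and from 1.59 to 2.59 for Rian without Ground replicate 1. In Space pups both kept their direction in all alternatives, between -3.04 and -1.42 for Meg3.

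The interaction of Meg3 for Ground ran from -3.05 to -2.17 without 1 library and was -2.53 (adjusted p = 0.0504) without BDF1 replicate 6. That of Rian was -2.72 (adjusted p = 0.0261) under total-count scaling, and that of Rian for Space against Ground ran from -0.65 to 0.73. The coefficient of Xist class was -0.24 for Meg3 and -0.20 for Rian under total-count scaling, and ran from -0.17 to 0.28 and from -0.17 to 0.32 without 1 library. The Xist-high against Xist-low value of Meg3 in Space pups ran from -0.64 to 0.13. Among other genes, Gm34667 in Space pups was 0.41 and Slc25a47 in Ground pups -0.18 in Xist-low libraries alone, and Stab2 in Space pups -0.081 under total-count scaling, which shifted the median of all genes to -0.25 for Space and -0.24 for Ground against BDF1. DESeq2 gave no adjusted p for Rian between Space and Ground. The cause was not tested in these cases. Depth limits Mirg and Dlk1 most, as most of their counts were at or under the limit of 3.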
